A study of Bos taurus with 20 samples.

Results

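The transforming growth factor beta (TGF-beta) ligands, their receptors and the latent binding proteins were described across clones of bovine mesenchymal stem cells (MSCs) from adipose tissue. The 10 genes were selected by symbol, as members of 1 system, with earlier results of these data known: the ligands TGFB1, TGFB2 and TGFB3, the receptors TGFBR1, TGFBR2 and TGFBR3, and the latent TGF-beta binding proteins LTBP1, LTBP2, LTBP3 and LTBP4. All 10 were found among the 33063 named genes of the table of raw counts, and all 10 were among the 12900 genes that passed the filter on low counts. Each library came from 1 clone, a population grown from a single sorted MSC of visceral fat of young Holstein Friesian x Aberdeen Angus calves. The 10 adipogenic (A) clones had filled with lipid when a parallel well was differentiated, and the 10 non-adipogenic (N) clones had not. All clones, A and N alike, were expanded in the same medium with fetal bovine serum and basic fibroblast growth factor, after an initial phase with medium conditioned by MSCs of the same animal, and RNA came from cells that had not been differentiated. There were 4 clones of each group from animal 22 and 4 of each from animal 23, while animals 17 and 20 contributed a single A and a single N clone apiece. A clone is named here by its animal and clone number, so that clone 22-5 is clone 5 of animal 22. Lipid filling, scored in sister cells of those sequenced, was what put a clone in its group, and the A clones sequenced were those that had filled best.

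TGF-beta is secreted as a latent complex in which the mature dimer stays wrapped in its own propeptide, and a latent binding protein ties most of this complex to fibrillin and fibronectin in the matrix. Integrins, proteases and thrombospondin free the ligand, which then joins the type II receptor kinase TGFBR2 and the type I receptor kinase TGFBR1, and TGFBR1 phosphorylates SMAD2 and SMAD3, which enter the nucleus with SMAD4. In adipose tissue the pathway is known as a brake on the conversion of precursors to adipocytes and as a driver of matrix production. The differentiation medium of the study contained SB431542, an inhibitor of the kinase of TGFBR1 and its closest relatives, but the libraries were made from cells not yet exposed to it. The data are messenger RNA levels only, and neither secreted nor active TGF-beta protein was measured.

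Total counts ranged from 14615493 to 43111345 per clone, and the members had between 58 and 72342 counts in a clone, so that counting error was small beside the spread between clones. The unit of the levels below is CPM after TMM scaling in edgeR, without a correction for gene length, so they compare clones for 1 gene and not 1 gene with another. The labelled cell type was checked against markers. All 10 MSC markers passed the filter and 0 of the 10 passed the test between groups, where 20.6% of all genes did. Of the 10, 9 had a positive log2 fold change (median 0.39). Their summed level was 9542 to 21438 CPM in N and 14000 to 25073 CPM in A clones. COL1A1 alone held 6279 to 15664 CPM in N and 8381 to 19812 CPM in A clones. COL1A1, ITGB1, ENG and DCN also belong to the pathway lists described below. Clone 22-5 had only 0.508 CPM of NT5E and 0.395 CPM of THY1, which are defining MSC markers. Mesothelial markers, chiefly keratins, summed to 10396 CPM in N clone 22-5 and 7293 CPM in N clone 22-9, to 1217 and 1059 CPM in A clones 22-11 and 22-16, and to at most 639 CPM in the other clones. MSLN was the 1 mesothelial marker of 8 tested that passed the test, lower in A clones, and CALB2 stayed under 1 CPM in all clones. Proliferation markers were lower in A clones in 5 of 8 cases (summed level 29.1 to 328 CPM in A and 115 to 546 CPM in N clones). The smooth muscle and pericyte genes NOTCH3 and MYH11 were higher in A clones among 8 tested of that list (summed level 4189 to 11530 CPM in A and 1085 to 10110 CPM in N clones). Endothelial markers summed to at most 41.4 CPM, macrophage markers to at most 22.7 CPM and mature adipocyte markers to at most 124 CPM, in N clone 20-15. Of the 8 endothelial genes, 4 stayed under 1 CPM in all clones, with CDH5 and KDR among them. So did the macrophage genes PTPRC and TYROBP and the adipocyte genes LEP and PLIN4. Among the others, VWF reached 30.1 CPM, PECAM1 16.3, CD163 3.41, CSF1R 2.38, LPL 90.6, FABP4 25.4 and ADIPOQ 1.52. Of the low genes of these lists, EGFL7, CD68, MRC1, CIDEA and PLIN1 were higher in A clones. What part these marker differences have in the values of the members was not tested. Since each clone is a bulk sample, a change in the share of cells expressing a gene and a change in RNA per cell cannot be told apart.

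The first question was whether A and N clones differed in the genes of this system before differentiation. Of the 10 members, 3 passed an adjusted p of 0.05, and all 3 were higher in A clones: TGFB1, TGFB2 and TGFBR1 (edgeR's quasi-likelihood test with animal as a block and Benjamini-Hochberg adjustment over all genes tested). Across all genes, 20.6% were called in either direction, 10.3% higher and 10.3% lower in A clones, so that 3 of 10 is a share not far from that of the transcriptome. TGFB1 and TGFB2 also reached a change of 2-fold, as did 5.76% of all genes. The median log2 fold change of the 10 members was 0.34, and that of all genes tested was -0.01. No member separated all 10 A from all 10 N clones, which 0.318% of genes did. With DESeq2, which called 27.3% of all genes, TGFBR2 and LTBP2 were called as well, making 5 members.

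**Figure D1:**
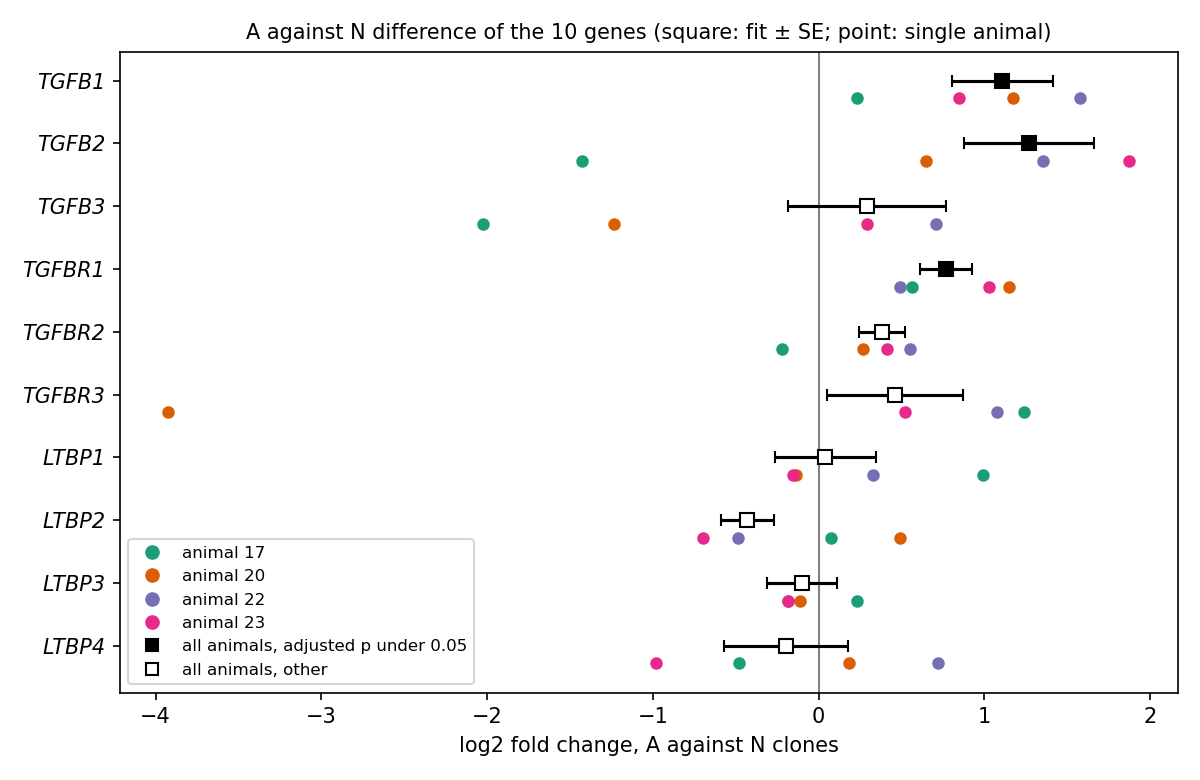
Log2 fold change of A against N clones for the 10 genes (x axis), with squares for the fit over all animals ± SE, filled where the adjusted p was under 0.05, and points for the difference of mean log2 CPM within each animal. TGFB1 and TGFBR1 lie above 0 in all 4 animals, TGFB2 in 3 of 4, and the latent binding proteins lie on both sides of 0.

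Of the ligands, TGFB1, the most widely studied isoform, was upregulated 2.16-fold in A clones. In the A clones its level was 85.0 CPM in 17-57, 104 in 20-106, 146 in 22-11, 131 in 22-16, 124 in 22-27, 72.9 in 22-121, 366 in 23-14, 132 in 23-62, 89.5 in 23-68 and 105 in 23-108. In the N clones its level was 72.3 CPM in 17-23, 46.2 in 20-15, 18.0 in 22-5, 26.6 in 22-9, 63.4 in 22-17, 70.7 in 22-18, 52.0 in 23-10, 65.8 in 23-22, 108 in 23-23 and 117 in 23-74. The groups overlapped, because N clones 23-23 and 23-74 lay within the range of the A clones, but all 10 A clones were above the median of the N clones and 5 were above every N clone. Group means were 135 ± 84.3 CPM in A and 63.9 ± 31.3 CPM in N clones (SD, n = 10 each), a log2 difference of 1.11 (SE 0.303, adjusted p = 0.018). The difference was positive within each animal, at 0.23, 1.17, 1.58 and 0.85 on the log2 scale in animals 17, 20, 22 and 23. A clone 23-14 stood far above the other A clones, and TGFB1 was called whichever single clone was left out (log2 0.88 to 1.2, adjusted p 0.0141 to 0.042). Without N clones 22-5 and 22-9, the pair with the highest mesothelial sums and the lowest TGFB1, the log2 difference was 0.88 with an adjusted p of 0.044. Leaving out A clones 22-11 and 22-16 as well gave 0.82 with an adjusted p of 0.0891. In the reference annotation TGFB1 overlaps HNRNPUL1 and CCDC97, and the strand setting of the counting is not stated. HNRNPUL1, which encodes an RNA-binding protein, was lower in A clones (log2 -0.29, adjusted p = 0.0218), and CCDC97 was at -0.19 (adjusted p = 0.365). Whether shared reads have a part in the values of TGFB1 was not tested.

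TGFB2, the isoform that also needs the coreceptor TGFBR3 for efficient binding to TGFBR2, had the largest fitted change of the 10 genes, 2.41-fold. Its levels in the A clones were 45.4 CPM in 17-57, 78.1 in 20-106, 304 in 22-11, 277 in 22-16, 211 in 22-27, 108 in 22-121, 419 in 23-14, 92.0 in 23-62, 216 in 23-68 and 194 in 23-108. Its levels in the N clones were 122 CPM in 17-23, 49.8 in 20-15, 30.3 in 22-5, 65.9 in 22-9, 174 in 22-17, 128 in 22-18, 60.9 in 23-10, 46.0 in 23-22, 50.7 in 23-23 and 62.3 in 23-74. In animal 23 the A and N clones did not overlap, in animal 22 A clone 22-121 lay among the N clones, and in animal 17 the single A clone was below the single N clone. The means were 194 ± 117 CPM in A and 79.0 ± 46.2 CPM in N clones, a log2 difference of 1.27 (SE 0.394, adjusted p = 0.0319). Within animals 17, 20, 22 and 23 the log2 difference was -1.43, 0.65, 1.36 and 1.88. The call depended on single clones: it was lost when any 1 of 8 clones was left out (N clones 22-9, 23-10, 23-22, 23-23 and 23-74, and A clones 22-11, 22-16 and 23-14), with adjusted p of 0.0526 to 0.0617 and log2 differences of 1.05 to 1.23. It was also lost without N clones 22-5 and 22-9 (log2 1.07, adjusted p = 0.0814).

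TGFB3, a ligand best known from palate and lung development, was not called. It ranged from 6.67 to 105 CPM in A clones (median 16.4) and from 5.14 to 31.9 CPM in N clones (median 21.7). The highest levels were in A clones 23-68, at 105 CPM, and 22-27, at 47.9 CPM, yet 7 of 10 A clones were below the median of the N clones. The fitted log2 difference was 0.29 (SE 0.479, adjusted p = 0.692). By animal it was -2.02 in 17 and -1.24 in 20, each from 1 clone per condition, and 0.71 in 22 and 0.29 in 23. TGFB3 overlaps IFT43 in the annotation, a gene at 7.48 CPM in A and 7.55 CPM in N clones.

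**Figure D2:**
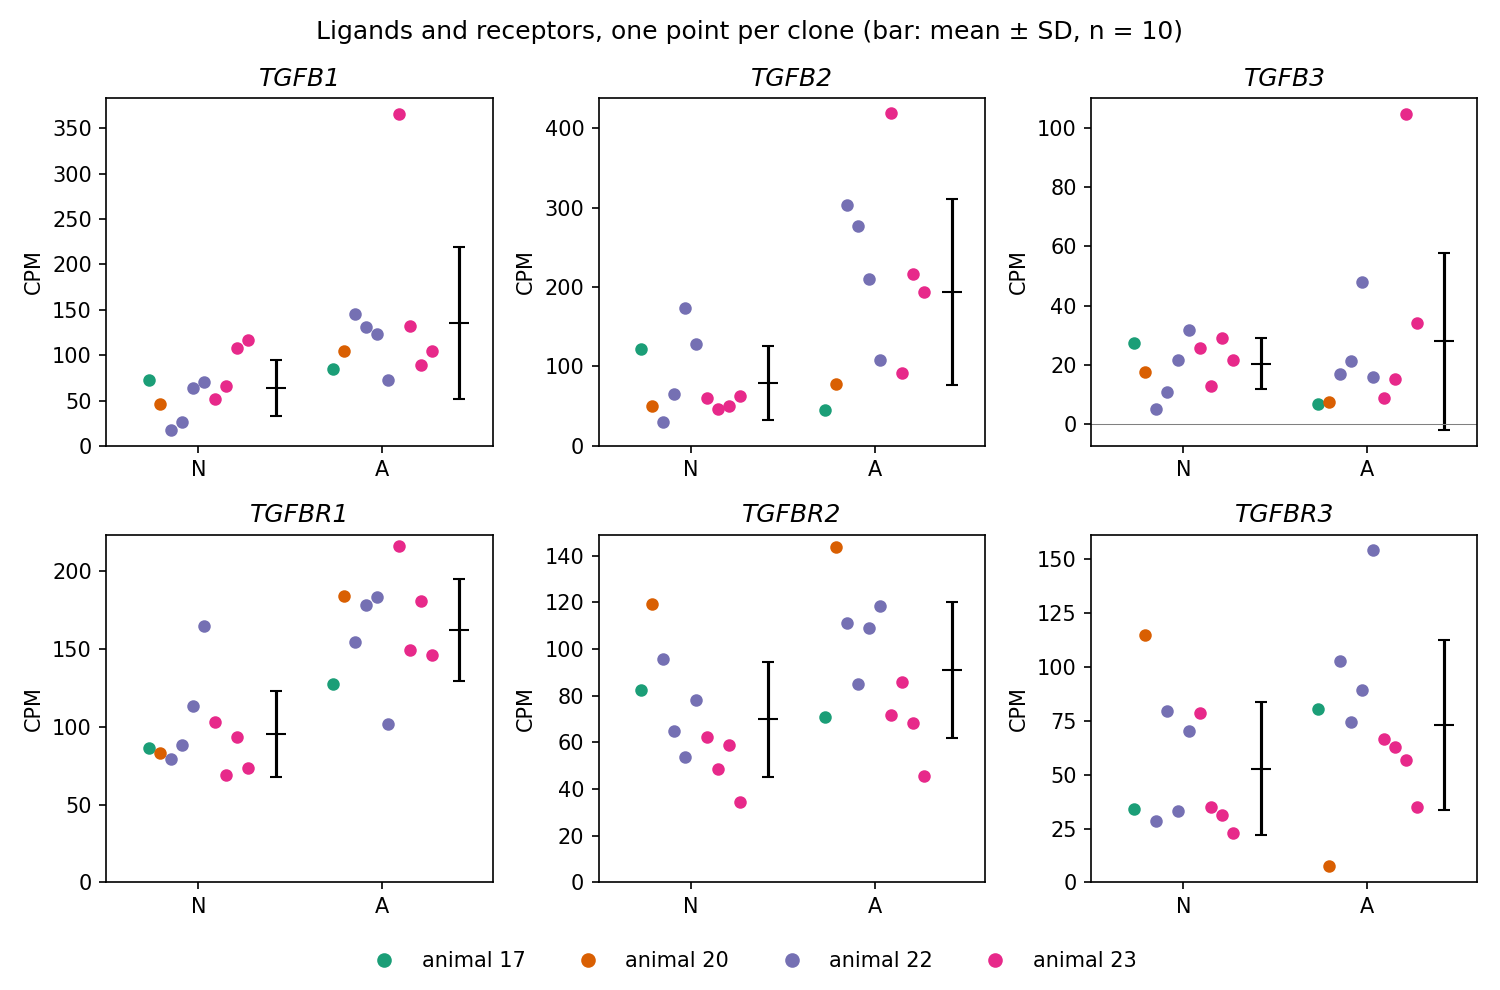
CPM of the 3 ligands and the 3 receptors in the 10 N and 10 A clones, with 1 point per clone coloured by animal and a bar for the mean ± SD (n = 10). The A clones of TGFBR1 lie at 102 to 216 CPM against 69.3 to 165 CPM in N clones, and TGFB1 and TGFB2 are highest in A clone 23-14.

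Among the receptors, TGFBR1, the type I receptor kinase that phosphorylates SMAD2 and SMAD3, had the smallest adjusted p of the members. Levels of TGFBR1 in the A clones were 128 CPM in 17-57, 184 in 20-106, 155 in 22-11, 179 in 22-16, 183 in 22-27, 102 in 22-121, 216 in 23-14, 149 in 23-62, 181 in 23-68 and 146 in 23-108. Levels of TGFBR1 in the N clones were 86.3 CPM in 17-23, 82.9 in 20-15, 79.4 in 22-5, 88.7 in 22-9, 114 in 22-17, 165 in 22-18, 103 in 23-10, 69.3 in 23-22, 93.5 in 23-23 and 73.5 in 23-74. All 10 A clones were above the median of the N clones and 5 were above every N clone. The overlap came from A clone 22-121, the lowest of its group, and from N clones 22-17, 22-18 and 23-10. The means were 162 ± 32.9 CPM in A and 95.5 ± 27.8 CPM in N clones, a 1.71-fold difference (log2 0.77, SE 0.157, adjusted p = 0.0041). Within animals 17, 20, 22 and 23 the log2 difference was 0.57, 1.15, 0.49 and 1.03. TGFBR1 was called whichever clone was left out (adjusted p 0.000628 to 0.00924), without N clones 22-5 and 22-9 (log2 0.71, adjusted p = 0.0152) and without the 4 clones with mesothelial sums over 1000 CPM (log2 0.74, adjusted p = 0.0281). In those last 2 fits 2 members and 1 member were called, against 14.2% and 10.9% of all genes.

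TGFBR2, the type II receptor kinase that binds the ligand and activates TGFBR1, was at 45.7 to 144 CPM in A clones (median 85.5) and 34.7 to 119 CPM in N clones (median 63.6). In 9 of 10 A clones it was above the median of the N clones, but only A clone 20-106 was above every N clone. Its log2 difference of 0.38 did not pass the test (SE 0.14, adjusted p = 0.0601), nor did it without N clones 22-5 and 22-9 (0.40, adjusted p = 0.0873). Leaving out 1 clone brought it past the threshold in 4 cases, N 17-23, N 22-5, A 17-57 and A 23-108, with adjusted p of 0.0332 to 0.0451. Leaving out either clone of animal 17 removes the contrast of that animal, so the fits without N 17-23 and without A 17-57 are nearly the same. TGFBR3, or betaglycan, the coreceptor that presents TGF-beta to TGFBR2, spread far more. It ranged from 7.45 to 154 CPM in A clones (median 70.4) and from 22.7 to 115 CPM in N clones (median 34.4). Its lowest and highest clones were both A clones, 20-106 and 22-121. Although 9 of 10 A clones were above the median of the N clones, the fit gave a log2 difference of 0.46 with an SE of 0.412 (adjusted p = 0.438). The 1 exception was clone 20-106, which made the difference in animal 20 -3.93 on the log2 scale, against 1.24, 1.08 and 0.52 in animals 17, 22 and 23. Without that clone, or without N 20-15, its only counterpart in the animal, the log2 difference of TGFBR3 was 0.76, with an adjusted p of 0.0602 in both fits.

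None of the 4 latent binding proteins passed the test. LTBP2, which binds fibrillin but, unlike the other family members, no latent TGF-beta, was nearest to it. It ranged from 858 to 1769 CPM in A clones (median 1255) and from 1005 to 2566 CPM in N clones (median 1693), and 9 of 10 A clones were below the median of the N clones. In animal 23 the A clones, at 1082 to 1535 CPM, were all below the N clones, at 1540 to 2566 CPM. Animals 17 and 20 went the other way, with log2 differences of 0.07 and 0.49 against -0.48 and -0.70 in animals 22 and 23. Over all animals the log2 difference was -0.43 (SE 0.162, adjusted p = 0.0681), and it passed the threshold when N 20-15, N 22-5 or A 20-106 was left out (adjusted p 0.0278 to 0.042). The fits without N 20-15 and without A 20-106 are nearly the same, since either removes the contrast of animal 20.

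LTBP1, the classic carrier of latent TGF-beta in fibroblasts, had almost equal means, 199 ± 123 CPM in A and 202 ± 168 CPM in N clones, with a log2 difference of 0.04 (SE 0.304, adjusted p = 0.938). The clones themselves differed by as much as 19.6 times, from 29.6 CPM in N clone 22-5 to 581 CPM in N clone 23-74. LTBP3, a carrier of latent TGF-beta with known roles in bone and teeth, ranged from 196 to 849 CPM in A and from 244 to 671 CPM in N clones (log2 -0.10, SE 0.21, adjusted p = 0.768). LTBP4, a partner of fibulins in elastic fibre assembly, was at 3.81 to 22.1 CPM in A and 2.39 to 51.8 CPM in N clones (log2 -0.20, SE 0.373, adjusted p = 0.734). Of the 10 members, 6 had their lowest N clone in 22-5, namely the 3 ligands and LTBP1, LTBP2 and LTBP3, and this is the clone that also lacked NT5E and THY1. Without N clones 22-5 and 22-9 the log2 difference of LTBP1 was -0.17 (adjusted p = 0.694).

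**Figure D3:**
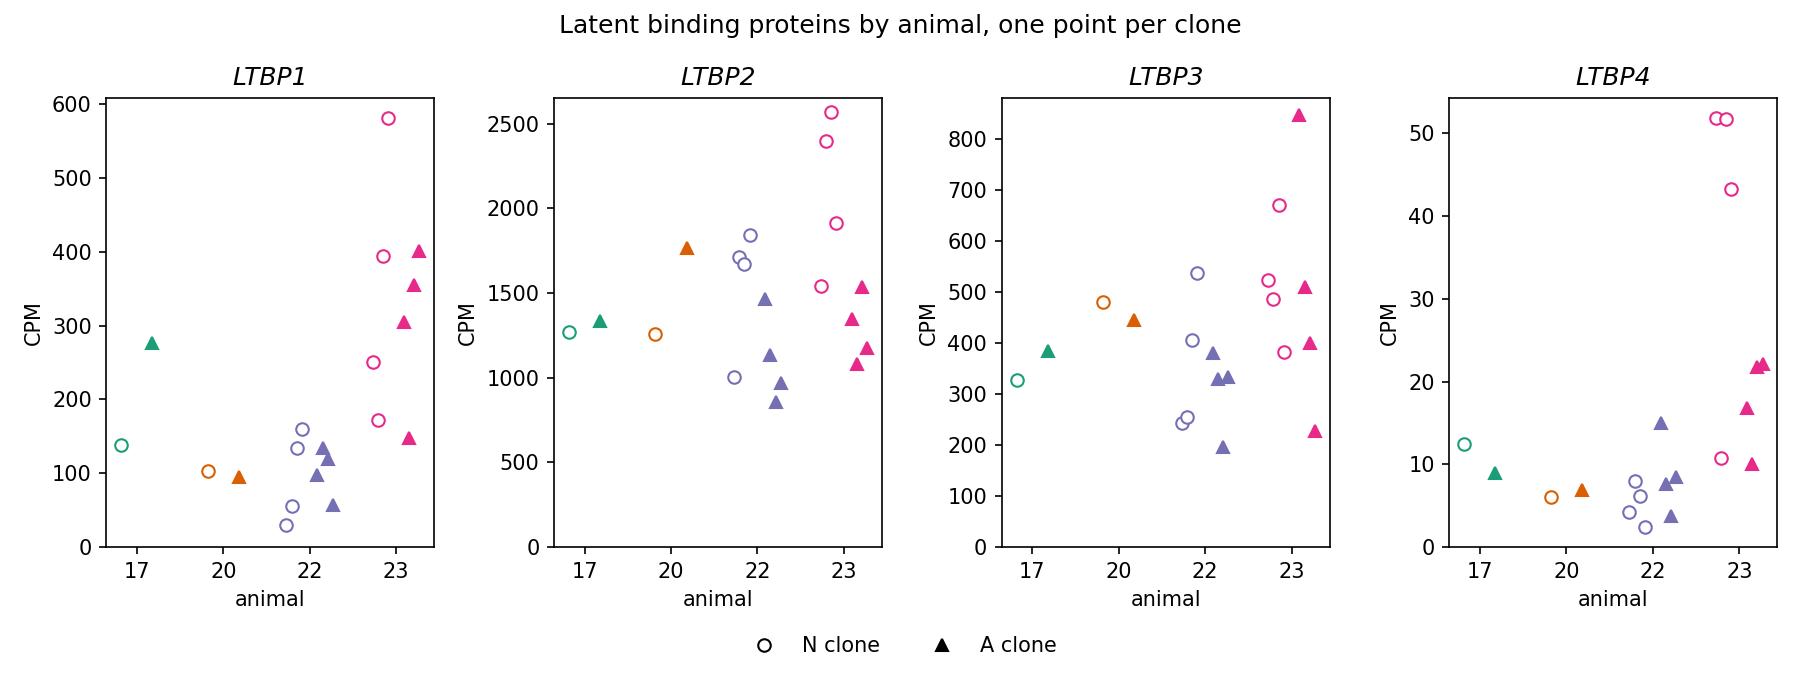
CPM of the 4 latent binding proteins by animal, with open circles for N clones and filled triangles for A clones, 1 point per clone. LTBP1 and LTBP4 are higher in the clones of animal 23 than in those of animal 22, and the A clones of animal 23 all lie below its N clones for LTBP2.

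How far the members varied with the animal was asked in the 16 clones of animals 22 and 23. LTBP1 and LTBP4 differed most. LTBP1 was at 29.6 to 160 CPM in the 8 clones of animal 22 (median 108) and at 147 to 581 CPM in those of animal 23 (median 330), with clone 22-18 the only overlap with 23-62. The log2 difference, animal 23 minus animal 22, was 1.72 (SE 0.358). LTBP4 was at 2.39 to 15.0 CPM in animal 22 (median 6.88) and 10.0 to 51.8 CPM in animal 23 (median 21.9), a log2 difference of 1.97 (SE 0.454). Both exceeded the A against N difference of each member in the fit over all animals, but neither passed edgeR's test (adjusted p = 0.0723 and 0.0996). In this fit 0 of 10 members and 0.108% of all genes were called, while 6 of 10 members and 12.3% of all genes had an unadjusted p under 0.05. With DESeq2, 3 members and 3.29% of all genes were called: LTBP1 (adjusted p = 0.000251), LTBP4 (adjusted p = 0.000544) and TGFBR2, which was lower in animal 23 (log2 -0.59, adjusted p = 0.0192). Without A clone 23-62, edgeR called LTBP1 and LTBP4 too (adjusted p = 0.0229 and 0.0363). Without N clones 22-5 and 22-9, the differences were 1.44 and 1.80, with adjusted p of 0.101 and 0.219. With only 2 animals of 8 clones each, what differs between animals and what differs between their MSC preparations cannot be told apart.

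Whether the A against N difference itself depended on the animal was tested as an interaction in the same 16 clones. For this term 0 of 10 members passed the test by edgeR, as did 0.031% of all genes. By DESeq2 0 members passed, beside 116 of 12915 genes. LTBP4 was the 1 member of 10 with an unadjusted p under 0.05, which 9.06% of all genes had, so this count is near the background. The mean of its A clones was above that of the N clones in animal 22, at 8.73 ± 4.63 against 5.16 ± 2.40 CPM, and below it in animal 23, at 17.7 ± 5.63 against 39.4 ± 19.5 CPM (SD, n = 4 each). The difference between those changes was -1.93 on the log2 scale (SE 0.713, adjusted p = 0.461 by edgeR and 0.201 by DESeq2). For TGFB2 and TGFBR1 the term was 0.89 (SE 0.707) and 0.56 (SE 0.341), with adjusted p of 0.745 and 0.656. The precision of this term is low, as only 13.5% of simulated 2-fold interactions (log2 size 1) were recovered at this number of clones. Of simulated interactions of log2 size 2, 67.4% were recovered. Those were 13 and 64 genes, where 4 genes were called in the data, so the rates need not hold there.

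The calls of the members changed with the animals included, the sizes of the differences often less so. In animal 23 alone, 2 members were called, TGFB2 (log2 2.07, adjusted p = 0.0286) and TGFBR1 (log2 1.03, adjusted p = 0.0212), where 6.22% of all genes were. In animal 22 alone, 0 members and 1.15% of genes were called, with TGFB1 at 1.40 (adjusted p = 0.171). Without animal 23, 0 members and 0.245% of genes passed, with log2 differences of 1.17 for TGFB1, 0.71 for TGFB2 and 0.59 for TGFBR1. Without animal 22, TGFBR1 alone passed (log2 0.98, adjusted p = 0.00629) beside 11.5% of genes, and TGFB1 and TGFB2 were at 0.92 and 1.35. When counts were summed per animal and condition, so that the animal was the replicate, 0 members and 0% of genes passed. In that fit the log2 differences of TGFB1, TGFB2 and TGFBR1 were 0.90, 0.65 and 0.77, and 2 of 10 members and 15.3% of all genes had an unadjusted p under 0.05.

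The rest of the pathway was described by 6 lists of genes that free the ligand, carry or block the signal, bind the ligand in the matrix or respond to it. Of the 83 genes listed, 76 were tested and 17 were called (22.4%), 11 higher and 6 lower in A clones, beside 20.6% of all genes. In this main fit the share was near that of all genes, and differences between the lists were not tested. Without N clones 22-5 and 22-9, 12 of the 76 were called, beside 14.2% of all genes. By DESeq2 28 of the 76 were called, beside 27.3% of all genes. In animal 23 alone 11 of the 76 were called, beside 6.22% of all genes.

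In the list of genes that activate latent complexes, 5 of 14 tested were called (35.7%), beside 20.6% of all genes in either direction. All 5 were higher in A clones, a direction in which 10.3% of all genes were called. The median log2 fold change was 0.57. BMP1, a metalloprotease that cleaves procollagens and LTBP1, was at 241 to 511 CPM in A and 107 to 270 CPM in N clones, with 9 of 10 A clones above every N clone (log2 1.04, SE 0.142, adjusted p = 0.000476). ITGAV, the integrin subunit shared by the receptors that pull on latent TGF-beta, was at 0.86 (adjusted p = 0.0202). LRRC32, or GARP, a cell surface anchor of latent TGF-beta, was at 25.0 to 120 CPM in A clones, while 8 of the N clones were at 6.18 CPM or less, 20-15 was at 16.7 and 22-18 at 87.4. Its log2 difference was 3.28 (SE 1.03, adjusted p = 0.0333). N clones 22-5 and 23-74 had 0 counts, and whether the prior count of the fit has a part in this size was not tested. Without N clone 22-18 the log2 difference of LRRC32 was 4.88, and without the block it was 2.30 and not called (adjusted p = 0.0978). PLAT, tissue plasminogen activator, was at 0.82 (adjusted p = 0.0362). FURIN, the protease that cuts the TGF-beta propeptide, completed the 5 at 0.69 (adjusted p = 0.0467), and it is named here after its values were seen. Leaving out 1 clone ended the call of LRRC32 in 8 and of PLAT in 12 of 20 fits.

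In the signal transduction list 4 of 12 tested genes were called (33.3%), beside 20.6% of all genes in either direction. All 4 were lower in A clones, a direction in which 10.3% of all genes were called. The other 8 were not called, and the median log2 fold change of the list was -0.20. SMAD3, a substrate of TGFBR1, was at 39.9 to 166 CPM in A and 78.0 to 203 CPM in N clones, and 8 of 10 A clones were below every N clone (log2 -1.0, SE 0.165, adjusted p = 0.00134). The other 2 were A clone 20-106, at 166 CPM, and A clone 17-57, at 79.9 CPM, just above N clones 22-17 and 22-18. SMAD4, the common partner, fell by 0.36 on the log2 scale (adjusted p = 0.00507), with all 10 A clones below the median of the N clones. The coactivator CREBBP and the SMAD4 ligase TRIM33 were lower by amounts near that of SMAD4 (-0.40 and -0.36, adjusted p = 0.0278 and 0.0468). Leaving out 1 clone ended these calls in 6 and 14 of 20 fits. For CREBBP the 6 included both clones of animal 17 and both of animal 20, which give near-equal fits within an animal. SMAD2, the other substrate of TGFBR1, was at 0.12 and was not called (adjusted p = 0.625).

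Of 12 inhibitors tested, 2 were called, in opposite directions. The share called was 16.7% of these, 14.3% of the matrix proteins and 7.69% of the elastic fibre genes below, beside 20.6% of all genes. SMURF2, a ubiquitin ligase that sends SMADs and receptors to degradation, was 2.01-fold higher in A clones (log2 1.01, SE 0.245, adjusted p = 0.0101). Its log2 difference was 1.63 in animal 23 alone but 0.27 in animal 22 alone, where N clones 22-17 and 22-18 held 389 and 412 CPM. SMAD6, an inhibitory SMAD that acts chiefly on bone morphogenetic protein signalling, was lower in all 4 animals (log2 -0.76, SE 0.161, adjusted p = 0.00521). SMAD7, the inhibitory SMAD of the TGF-beta branch, was at 0.24 and was not called (adjusted p = 0.513). Among 7 matrix proteins that bind TGF-beta only HTRA1, a secreted serine protease, was called (log2 0.63, adjusted p = 0.00199), and it was higher in all 4 animals. Among 13 elastic fibre genes only FBLN2, a fibulin, was called (log2 -1.15, adjusted p = 0.047), with 13.8 CPM in A clone 20-106 and 349 to 1333 CPM in the other A clones. That call was lost in 15 of 20 fits with 1 clone left out. FBN1, the fibrillin to which the latent binding proteins attach, was at 0.41 and was not called (adjusted p = 0.447).

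Among 18 tested genes known as targets of the pathway, 4 were called (22.2%), a share near the 20.6% of all genes called in either direction. All 4 were higher in A clones, a direction in which 10.3% of all genes were called. The median log2 fold change over the list was 0.51. IGFBP3, a carrier of insulin-like growth factors, had a median of 59.7 CPM in A and 1.13 CPM in N clones (log2 4.40, adjusted p = 0.0123), with single clones as high as 1256 CPM in A 17-57. N clones 23-22 and 23-74 had 0 counts of IGFBP3, and the part of the prior count was not tested for this gene either. The log2 difference of IGFBP3 was 6.37 without N clone 22-18, which held 57.5 CPM. Without the block it was 3.71 and not called (adjusted p = 0.0626). COL3A1, a fibrillar collagen, was higher over all animals (log2 0.93, adjusted p = 0.0126), but its difference was -0.35 in animal 17 and -0.06 in animal 20. TPM1, an actin-binding tropomyosin, was higher in all 4 animals (log2 0.81, adjusted p = 0.0105). CTGF, now also named CCN2, a matricellular protein, was at 0.46 and was not called (adjusted p = 0.214). These genes respond to other signals too, and which signal set their levels here was not tested.

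**Figure D4:**
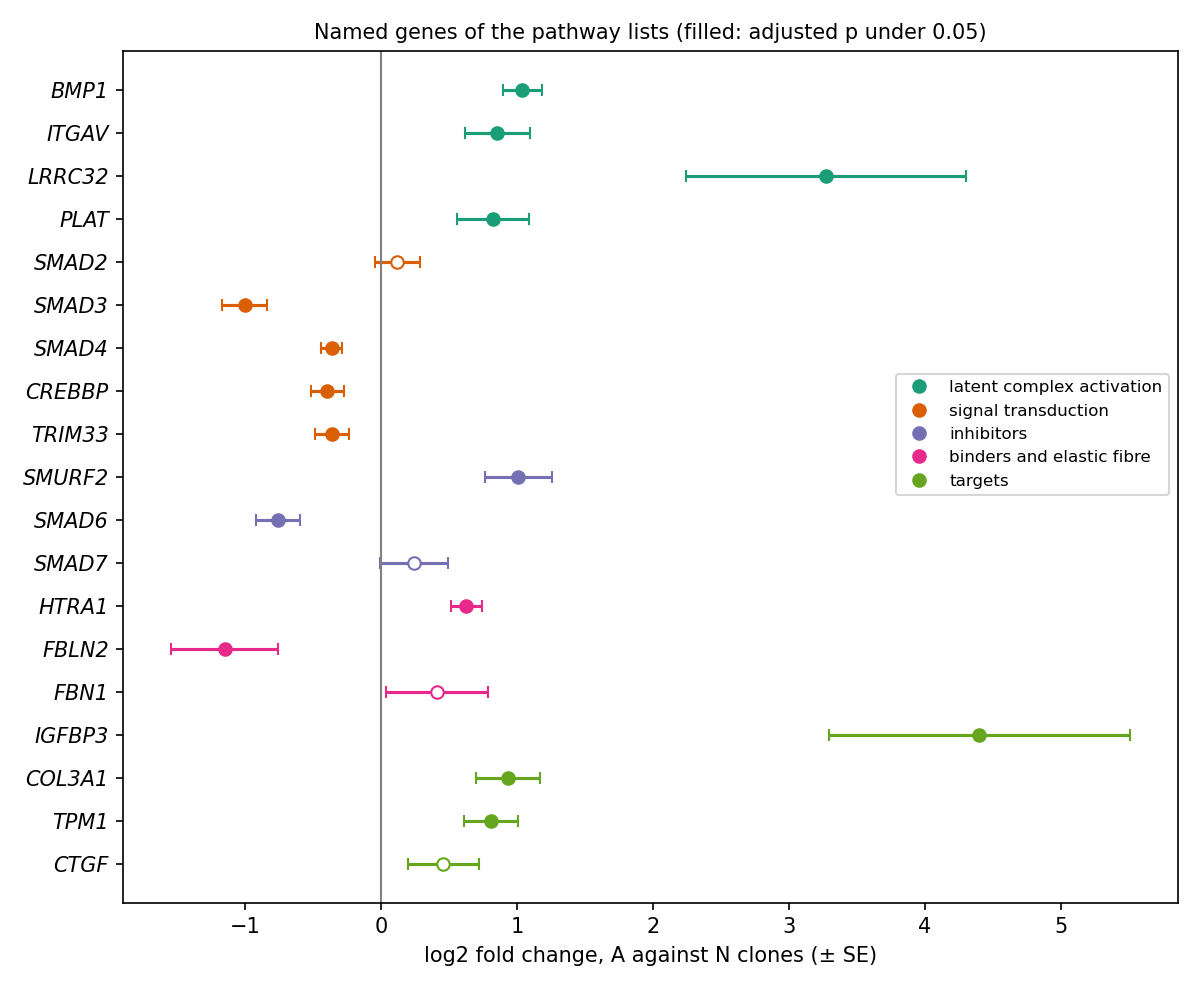
Log2 fold change of A against N clones ± SE (x axis) for the named genes of the pathway lists, coloured by list and filled where the adjusted p was under 0.05. The called activation and target genes lie above 0 and the called signal transduction genes, with SMAD3 at -1.0, lie below it.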

How the data were processed

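RNA sequencing libraries of 10 A and 10 N clones were analysed, grouped by the sample labels. What the authors deposited was a table of raw, whole-number counts. Per the submitters' processing notes they used bcl2fastq 2.20, Trimmomatic 0.36, STAR 2.5.2b and featureCounts of Subread 1.5.2. The kit was directional, but the strand setting of the counting is not given in the sources used here, and counts of overlapping genes are uncertain. A row without a gene name held 0.113% to 0.333% of a clone's counts and was left out.

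A and N clones were compared by edgeR 4.0.16 under R 4.3.3 (scaling by TMM, default filter, robust quasi-likelihood fit, Benjamini-Hochberg adjustment, 12900 genes), with animal as a block. The SE is the log2 fold change divided by the square root of F. Differences within an animal are of mean log2 CPM with a prior count of 2. The pairing comes from the animals, and deviations of A and N clones of 1 animal correlated at 0.253, 0.193, 0.241 and 0.440 in animals 17, 20, 22 and 23. Overlapping genes were read from a RefSeq table of another assembly, in which all 10 members matched by symbol, and no coordinates are given.

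The members and gene lists were chosen with earlier results of these data known. Named genes are the 10 members, in each pathway list up to 4 called genes per direction by adjusted p, CTGF, SMAD2, SMAD3, SMAD4, SMAD7 and FBN1, and the 3 genes most like each of the 3 members with the smallest adjusted p. Results of some genes that meet this rule are not reported here. Alternatives were no block, other scalings and filters, DESeq2 1.42.0, a fit without robust dispersion, sums per animal, and animals or clones left out. Leaving out either clone of animal 17, or either of animal 20, removes the contrast of that animal. In every count of fits with 1 clone left out, those fits are therefore near-equal pairs and not separate cases. The fits without N clones 22-5 and 22-9, or without the 4 clones high in mesothelial markers, were chosen after seeing the data. With animal in the model, p-values measure the spread between clones within an animal and not the spread between animals. In simulated counts of 12580 genes, the A against N test recovered 80.4% of 2-fold changes with 5 false calls.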

Additional observations from a re-analysis of the deposited data

Results flagged for a closer look

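A gap test for 1 stray clone was applied to 62 groups of values. It set Dixon's ratio of the gap to the range of the 10 clones of a group against its 95% limit. The ratio was taken on the log2 scale, so it does not follow directly from the CPM or counts printed beside it. The test marked 7 groups, where chance alone marks about 1 in 20 groups, or 3.1. TGFB1 in A clone 23-14 was at 366 CPM beside 72.9 to 146 CPM in the other A clones (ratio 0.572). TGFBR3 in A clone 20-106 was at 7.45 CPM beside 35.1 to 154 CPM (ratio 0.510). The same clone was the lowest A clone for FBLN2, at 13.8 CPM beside 349 to 1333 CPM (ratio 0.706), and the highest for SMAD3, at 166 CPM beside 39.9 to 79.9 CPM (ratio 0.514). SMAD2 in N clone 22-5 was at 32.9 CPM beside 68.2 to 113 CPM in the other N clones (ratio 0.592). FBN1 in A clone 23-108 was at 609 CPM beside 1082 to 1930.2 CPM in the other A clones (ratio 0.498). The total count of N clone 22-18, 43111345, exceeded the 14908802 to 23425994 of the other N clones (ratio 0.574).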

How the results depend on the processing

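The number of members called was 3 without the replicate block (2168 genes, 14 in the pathway lists), so the pairing changed no call of a member, though without it LRRC32, IGFBP3, PLAT (log2 0.65, adjusted p = 0.20) and FBLN2 (log2 -0.90, adjusted p = 0.131) were not called, and it was 3 with other scalings and filters. It was 5 with DESeq2 (3528 genes, 28 in the pathway lists). With sums per animal it was 0 (0 genes, 0 in the pathway lists), without animal 22 it was 1 (1471 genes), without animal 23 it was 0 (32 genes, 1 in the pathway lists), in animal 22 alone it was 0 (153 genes, 2 in the pathway lists) and in animal 23 alone it was 2 (800 genes, 11 in the pathway lists). Without the 4 clones high in mesothelial markers it was 1 (1393 genes, 10 in the pathway lists). With 1 clone left out it was 2 to 5 (1984 to 3133 genes, 11 to 21 in the pathway lists). For animal 23 against 22 it was 0 by edgeR, 3 by DESeq2 and 0 to 2 with 1 clone left out, and for the interaction 0 in every fit.

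Signs turned for genes that were not called. LTBP1 was at -0.023 without the block, -0.063 without animal 17, -9.1e-05 without animal 22, -0.21 in animal 23 alone, -0.17 without N clones 22-5 and 22-9, -0.19 without the 4 clones, and -0.073 to 0.19 with 1 clone left out. LTBP4 was at 0.46 without animal 23 and 0.76 in animal 22 alone. TGFB3 was at -0.55 in the sums and -0.14 without animal 23, and at -0.16 to 0.51 with 1 clone left out. LTBP3 was at -0.24 to 0.0020 with 1 clone left out. In the sums TGFBR3 was at -0.034, SMAD7 at -0.17 and FBN1 at -0.18. SMAD7 was at -0.28 without animal 22, -0.0037 in animal 23 alone and -0.075 without the 4 clones, and SMAD2 at -0.012 without N clones 22-5 and 22-9. The interaction of TGFB1 became 0.20 without that pair and 0.46 without the 4 clones, that of LTBP1 0.32 and 0.53, and that of LTBP2 0.23 without the 4. With 1 clone left out the interaction was -0.76 to 0.81 for TGFB3, -0.27 to 0.029 for TGFBR2, -0.69 to 0.049 for LTBP1 and -0.23 to 0.40 for LTBP3, and TGFBR1 was at -0.21 to 0.022 for animal 23 against 22. The causes were not tested. Only 2 animals had more than 1 clone per condition, which limits every statement about animals.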

Other observations

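The genes whose levels were most like those of the 3 called members were found by Pearson's r of log2 CPM over the 20 clones after subtracting each animal's mean. The values are descriptions with no test, since the best of 12900 genes were picked, the clones share animals, and all 9 genes were themselves higher in A clones. Nearest to TGFBR1 were CDK17, a cyclin-dependent kinase (r = 0.944), SUCO, a protein of the endoplasmic reticulum (r = 0.938), and HILPDA, a lipid droplet protein induced by hypoxia (r = 0.936). Within the 10 A clones alone these were 0.859, 0.812 and 0.879, and within the 10 N clones 0.874, 0.931 and 0.80.

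Nearest to TGFB1 were PLAUR, the urokinase receptor (r = 0.924), RAB7B, a small GTPase of endosomes (r = 0.911), and DOK5, an adaptor of receptor tyrosine kinases (r = 0.907). PLAUR was higher in A clones by 2.44 on the log2 scale (adjusted p = 0.00513). Without the 2 clones farthest from the median of TGFB1, N 22-5 and A 23-14, the r of these genes was 0.872, 0.891 and 0.886.

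Nearest to TGFB2 were HIF1A, the oxygen-regulated transcription factor (r = 0.916), PPP1R3F, a regulatory subunit of protein phosphatase (r = 0.903), and FBXO47, an F-box protein (r = 0.895). For HIF1A, r was 0.937 within A clones and 0.876 within N clones, and the gene was higher in A clones by 1.01 on the log2 scale (adjusted p = 0.00221). With a prior count of 0.5 in place of 2, all 9 genes stayed among the 3 nearest of their member.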
